A study of Homo sapiens with 12 samples.

Results

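The homeodomain-interacting protein kinases HIPK1, HIPK2 and HIPK3 were followed in 12 RNA sequencing libraries of HMEC-1, an immortalised human microvascular endothelial line of dermal origin. The 3 genes were taken by symbol from a deposited table of 36433 gene symbols, in which they own 20 of 187626 transcripts. They were chosen by values measured in these same libraries: HIPK1 for its higher level with a miR-126 mimic and HIPK2 for its lower level with a miR-143 mimic. Their differences from the scrambled libraries are therefore given as a description, with no test. All 3 genes passed the filter on low values, which 13750 symbols passed (at least 1 TPM in at least 3 libraries). TPM is a transcript level scaled to transcript length and to the library total, so levels can be compared between genes.

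The libraries came from cells given a miR-126 mimic, a miR-143 mimic, a miR-150 mimic or a non-targeting scrambled RNA, with 3 libraries each. Every group, the scrambled one included, was transfected with RNAiMAX at 50 nM and collected after 48 h. A mimic is a synthetic duplex that adds copies of a mature microRNA, so the comparisons ask which transcripts change when one microRNA is raised in these cells. The line is a single one, every comparison uses the same 3 scrambled libraries, and nothing in the labels says whether libraries of a group came from separate cultures.

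HIPKs are serine/threonine kinases found largely in the nucleus, where they bind homeodomain proteins, corepressors and other regulators of transcription. HIPK2 acts in the response to DNA damage and is kept low in undamaged cells by ubiquitin ligases of the SIAH family and by WSB1. HIPK1 shares many partners with HIPK2, and in mice the loss of both genes is lethal in the embryo, with defects of blood vessels among others. HIPK3 acts in steroidogenic signalling and in apoptosis, and its locus also makes a circular RNA, for which no value is given here. MicroRNAs lower transcripts by pairing of their seed, bases 2 to 8, with matching letters, mostly in the 3' UTR.

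On GRCh38 (GENCODE release 29), HIPK1 lies on the plus strand of chromosome 1 from 113929192 to 113977869. HIPK2 lies on the minus strand of chromosome 7 from 139561570 to 139777778. HIPK3 lies on the plus strand of chromosome 11 from 33256672 to 33357023. On the transcript strand, no stretch of 31 bases, the unit in which kallisto compares reads, was shared between the 3 genes or with any other gene of that annotation. On that strand, reads of one member therefore cannot be split with another. Sharing with transcripts read from the opposite strand was not checked.

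The library labelled replicate 4 of miR-143 and the one labelled replicate 4 of miR-150 stood apart from the rest. In them, a gene's deviation from its mean fell with transcript length across genes (Spearman -0.399 and -0.548), while the coefficient lay between -0.00843 and 0.289 in the other 10 libraries. The HIPK genes are long: weighted by abundance, their transcripts measured 7033 bases for HIPK1, 13231 bases for HIPK2 and 6353 bases for HIPK3, against a median of 2127 bases over tested genes. HIPK2 was longer than 99.9% of tested genes, HIPK1 than 97.2% and HIPK3 than 95.8%. Results that rest on these 2 libraries are given with and without them, and the part of length in them was not tested. The endothelial identity of the line showed in its markers, all 14 of which passed the filter. Their summed level was 1788 to 2553 TPM with miR-126, 2325 to 3263 TPM with miR-143, 2045 to 2962 TPM with miR-150 and 2325 to 3226 TPM with scrambled RNA. Of 10 fibroblast and pericyte markers 6 passed, with summed levels of 56.8 to 78.6 TPM with miR-126, 44.2 to 64.5 TPM with miR-143, 40.2 to 52.0 TPM with miR-150 and 54.6 to 137 TPM with scrambled RNA. Across the 12 libraries, COL1A2 ranged from 3.32 to 80.1 TPM, COL1A1 from 5.13 to 32.0 TPM, ACTA2 from 2.38 to 28.6 TPM and RGS5 from 7.44 to 12.8 TPM, while DCN and LUM, defining fibroblast genes, stayed at or under 0.696 TPM. Epithelial markers summed to at most 4.94 TPM and leukocyte markers to at most 4.09 TPM. In such bulk libraries, fewer expressing cells and less RNA per cell cannot be told apart.

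The mature sequences of miR-126 and miR-143 follow because their seeds set which letters to look for in HIPK transcripts. They are RefSeq entries on GRCh38.p14, with the seed in capitals, from chromosome 9 (miR-126, within the endothelial gene EGFL7) and chromosome 5 (miR-143). Both arms are shown, since the labels do not say which arm the mimic supplied, and no 2 of the 4 share a seed. Matches to miR-150 were not analysed here.
hsa-miR-126-3p: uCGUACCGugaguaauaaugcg
hsa-miR-126-5p: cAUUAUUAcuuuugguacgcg
hsa-miR-143-3p: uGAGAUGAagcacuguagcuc
hsa-miR-143-5p: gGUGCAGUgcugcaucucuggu

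The letters that pair with these seeds are CGGTACG for miR-126-3p, TAATAAT for miR-126-5p, TCATCTC for miR-143-3p and ACTGCAC for miR-143-5p, searched on the transcript strand, and none of them contains another. HIPK2-202, the long HIPK2 transcript, has a 3' UTR of 11357 bases with 9 matches to the miR-143-3p seed. Among 186 longest 3' UTRs of genes that lie within 20% of its length, HIPK2 held the most such matches, the mean was 1.09 and 58.6% held at least 1. Over all 19133 genes with a 3' UTR, 13.3% held at least 1. In 4 of the 9, an A followed the match, the base that lies opposite the first base of the microRNA. Those 4 windows are shown because they carry the longest form of match searched, with the match to the seed in capitals.
HIPK2 (chr7:139566823-139566849, minus strand): tgggagccccTCATCTCagatccctgt
HIPK2 (chr7:139563678-139563704, minus strand): aaaatagtttTCATCTCacccctccta
HIPK2 (chr7:139562317-139562343, minus strand): ctccccagggTCATCTCacctagatct
HIPK2 (chr7:139562288-139562314, minus strand): ctctcccaggTCATCTCagctcaatct

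The other HIPK transcripts held fewer matches. The 3' UTR of 4292 bases in HIPK1-205, the main HIPK1 transcript, held 1 miR-143-3p match, as did 31.3% of 1543 genes with 3' UTRs of like length. It also held the 7-mer GGTTGTG, found in 21.5% of those genes and in 8.93% of all. That 7-mer was singled out in an earlier scan of these same libraries because genes holding it were lowest in the scrambled libraries, so its presence in HIPK1 is no independent evidence. HIPK2-202 held 1 GGTTGTG as well, with 2 matches to miR-126-5p and 1 to miR-143-5p. Of 186 genes of like length, 42.5%, 73.7% and 71.0% held at least 1 of these, in that order. At least 2 matches to miR-126-5p were in 82 of them. The 3' UTR of HIPK3-201, 3455 bases long, held 3 matches to miR-126-5p and none to either arm of miR-143. Of 1995 genes of like length, 35.2% held at least 1 miR-126-5p match and 77, HIPK3 included, held at least 3. The miR-126-3p match, present in 0.214% of all genes with a 3' UTR, occurred in no HIPK 3' UTR. These matches are letters in a window and say nothing of binding. The HIPK1 windows are shown because they are the 2 matches found in that transcript.
HIPK1, miR-143-3p match (chr1:113974497-113974523, plus strand): tctgttttgcTCATCTCtcccttctgt
HIPK1, 7-mer (chr1:113977487-113977513, plus strand): ccctttttttGGTTGTGcgctttcttt

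**Figure D1:**
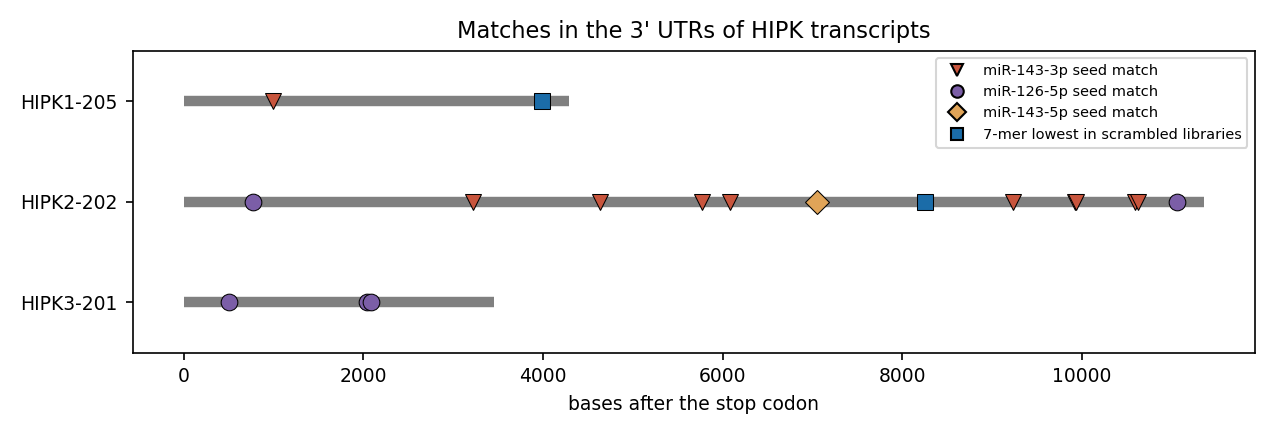
Positions of seed matches and of the 7-mer GGTTGTG along the 3' UTRs (grey bars) of HIPK1-205, HIPK2-202 and HIPK3-201, in bases after the stop codon. Red triangles mark the 9 miR-143-3p matches of HIPK2-202 (a few lie too close to be drawn apart) and the 1 of HIPK1-205, and HIPK3-201 has 3 miR-126-5p matches and no triangle.

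HIPK1, which shares partners with HIPK2 in transcriptional control, was higher with each mimic than with scrambled RNA. With miR-126 it had 35.4, 34.8 and 34.7 TPM in replicates 2, 3 and 4, with miR-143 34.0, 28.1 and 16.3 TPM, with miR-150 32.1, 30.9 and 11.6 TPM, and with scrambled RNA 7.50, 12.2 and 8.68 TPM. The miR-126 libraries were all high and lay close together. The miR-143 libraries also lay above every scrambled one, and replicate 4 of miR-150 was the single mimic library that fell within the scrambled range. The means were 35.0 ± 0.354 TPM with miR-126, 26.1 ± 8.98 TPM with miR-143, 24.9 ± 11.5 TPM with miR-150 and 9.48 ± 2.47 TPM with scrambled RNA (SD, n = 3 each). In that order, miR-143 and miR-150 did not differ beyond their spread. The mean of miR-126 lay within 1 SD of both, although its lowest library was above their highest.

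On the scale log2(TPM + 1), which understates changes of low genes, HIPK1 differed from scrambled RNA by 1.80 with miR-126 (SE 0.359, a fold of 3.49). The difference was 1.34 with miR-143 (SE 0.359, a fold of 2.53) and 1.20 with miR-150 (SE 0.359, a fold of 2.30). It ranked 44 from the top of 13750 genes for miR-126, 54 for miR-143 and 41 for miR-150. Those 3 differences share their scrambled libraries, so they are not separate observations of the scrambled level. Without the 2 libraries that stood apart, the difference was 1.63 with miR-143 and 1.66 with miR-150, and the means of replicates 2 and 3 were 31 TPM with miR-143, 31.5 TPM with miR-150 and 9.88 TPM with scrambled RNA. Leaving out 1 library at a time, the value ran from 1.67 to 1.99 for miR-126, from 1.12 to 1.63 for miR-143 and from 0.96 to 1.66 for miR-150.

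HIPK2, the kinase of the DNA damage response, was lowest with miR-143. It had 20.2, 14.1 and 20.4 TPM with miR-126, 7.0, 4.46 and 2.95 TPM with miR-143, 23.8, 19.1 and 5.96 TPM with miR-150, and 15.4, 17.5 and 23.0 TPM with scrambled RNA. All miR-143 libraries lay below all scrambled ones, while the miR-126 range overlapped the scrambled range. With miR-150, replicate 4 alone lay below the scrambled range. The means were 18.2 ± 3.6 TPM with miR-126, 4.80 ± 2.04 TPM with miR-143, 16.3 ± 9.24 TPM with miR-150 and 18.7 ± 3.95 TPM with scrambled RNA (SD, n = 3 each). Scrambled RNA, miR-126 and miR-150, the 3 highest in that order, did not differ beyond their spread, and replicate 4 of miR-150 lay within the miR-143 range.

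The log2 difference of HIPK2 from scrambled RNA was -1.80 with miR-143 (SE 0.420, a fold of 0.287), rank 16 from the bottom of 13750 genes. Leaving out 1 library at a time it ran from -2.06 to -1.55, and without the 2 libraries apart it was -1.55. With miR-126 the difference was -0.03 (SE 0.420), 0.04 once the trend on transcript length was removed, and -0.15 to 0.13 with 1 library left out, so it has no firm sign. With miR-150 it was -0.36 (SE 0.420) over all libraries and 0.20 without the libraries apart, so its sign there rests on replicate 4.

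HIPK3, the third member, was the most abundant of the family in scrambled libraries and its range overlapped theirs in each mimic group. It had 39.6, 31.8 and 32.7 TPM with miR-126, 49.9, 26.7 and 18.5 TPM with miR-143, 41.3, 28.3 and 8.26 TPM with miR-150, and 32.8, 35.1 and 40.9 TPM with scrambled RNA. Its miR-143 and miR-150 libraries fanned out widely, replicate 2 above the scrambled range and replicates 3 and 4 below it. The means were 34.7 ± 4.31 TPM with miR-126, 31.7 ± 16.3 TPM with miR-143, 26.0 ± 16.7 TPM with miR-150 and 36.2 ± 4.20 TPM with scrambled RNA (SD, n = 3 each), and no neighbours in that order differed beyond their spread. The log2 differences were -0.06 with miR-126, -0.30 with miR-143 and -0.72 with miR-150 (SE 0.476 each). Without the libraries apart they were 0.02 with miR-143 and -0.08 with miR-150, and the value for miR-126 ran from -0.16 to 0.03 with 1 library left out.

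**Figure D2:**
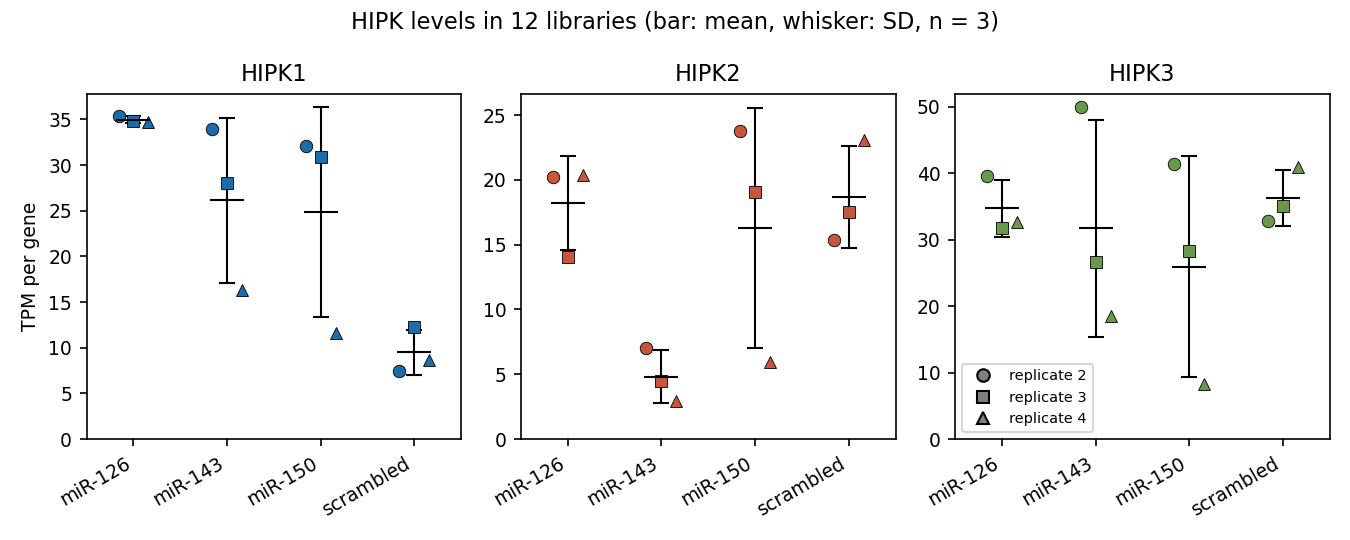
TPM per gene (vertical axis) of HIPK1, HIPK2 and HIPK3 in the miR-126, miR-143, miR-150 and scrambled libraries. Points are libraries with the symbol giving the replicate number, horizontal bars are means and whiskers SD (n = 3); HIPK1 sits near 35.0 TPM in all miR-126 libraries, HIPK2 at or under 7.0 TPM in all miR-143 libraries, and replicate 4 (triangles) is the lowest library of miR-143 and of miR-150 in each panel.

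Set against the library of the same number, HIPK1 was higher by 2.10, 1.44 and 1.88 with miR-126 (log2, replicates 2, 3 and 4), by 2.04, 1.13 and 0.84 with miR-143 and by 1.96, 1.27 and 0.38 with miR-150. All 9 differences were above 0, with the smallest in the miR-150 library that stood apart. They reuse the same 3 scrambled libraries and HIPK1 was chosen by its level in them, so they are not 9 separate observations. For miR-143 and miR-150, not every same-numbered pair deviated together. For HIPK2 the differences were -1.04, -1.76 and -2.60 with miR-143, each below 0. They were 0.37, -0.30 and -0.17 with miR-126, and 0.60, 0.12 and -1.79 with miR-150, with signs on both sides. HIPK3 gave 0.27, -0.14 and -0.32 with miR-126, 0.59, -0.38 and -1.10 with miR-143, and 0.33, -0.30 and -2.18 with miR-150. In that gene, replicate 2 was above 0 and replicates 3 and 4 below 0 for every mimic.

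**Figure D3:**
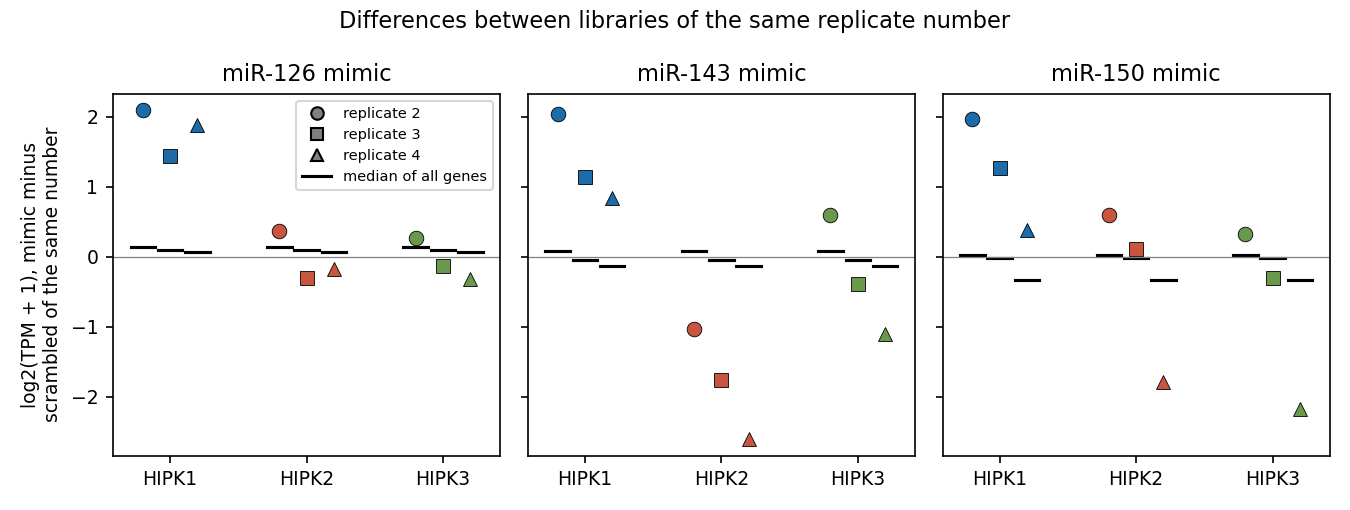
Difference in log2(TPM + 1) between each mimic library and the scrambled library of the same replicate number, for HIPK1, HIPK2 and HIPK3, with short black lines at the median of all tested genes in that pair of libraries. HIPK1 points lie above 0 in every panel, HIPK2 points lie below 0 in all 3 pairs with miR-143 alone, and replicate 4 of miR-150 is far below 0 for HIPK2 and HIPK3.

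Shares within the family do not move with a factor common to the 3 genes in a library. A bias by transcript length is not such a factor, since HIPK2 measured 13231 bases, against 7033 for HIPK1 and 6353 for HIPK3. HIPK2 made up 7.70%, 7.53% and 7.81% of the summed HIPK TPM with miR-143, against 27.7%, 27.0% and 31.7% with scrambled RNA. The share was nearly equal in the 3 miR-143 libraries, although their summed levels were 90.9, 59.2 and 37.8 TPM. With miR-126 the HIPK2 share was 21.2%, 17.4% and 23.2%, and with miR-150 it was 24.5%, 24.4% and 23.1%, below the scrambled range in each library.

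HIPK1 took 37.1%, 43.2% and 39.5% of the family with miR-126, 37.4%, 47.4% and 43.2% with miR-143, 33.0%, 39.4% and 45.0% with miR-150, and 13.5%, 18.9% and 12% with scrambled RNA. Every mimic library, both of those that stood apart included, lay above every scrambled library in this share. HIPK3 took 41.6%, 39.4% and 37.2% with miR-126, 54.9%, 45.0% and 49.0% with miR-143, 42.5%, 36.1% and 31.9% with miR-150, and 58.9%, 54.1% and 56.3% with scrambled RNA. Shares sum to 100%, so a higher HIPK1 share lowers the others. HIPK1 and HIPK2 were chosen by their levels against these same scrambled libraries, and no background for such shares was computed. Nothing is therefore read from the separation of either share. The summed family level was 87.9 ± 7.27 TPM with miR-126, 62.6 ± 26.7 TPM with miR-143, 67.1 ± 37.0 TPM with miR-150 and 64.4 ± 8.49 TPM with scrambled RNA (SD, n = 3 each).

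**Figure D4:**
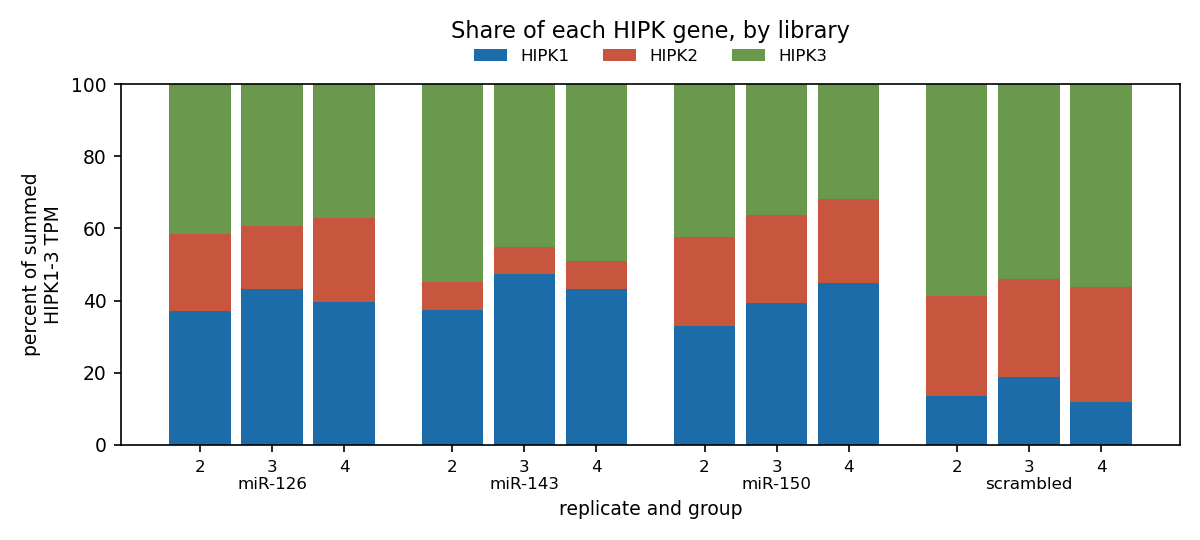
Share of HIPK1, HIPK2 and HIPK3 (percent of their summed TPM, vertical axis) in each of the 12 libraries, by group and replicate number. The HIPK2 segment is 7.53% to 7.81% in the miR-143 libraries, and the HIPK1 segment is at least 33.0% in each mimic library and at most 18.9% in each scrambled library.

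Across the 12 libraries, the levels of HIPK1 and HIPK2 on the log2 scale correlated with r = 0.0618 and those of HIPK1 and HIPK3 with r = 0.315. HIPK2 and HIPK3 gave r = 0.564. Over the 10 libraries without those that stood apart, r was -0.203 for HIPK1 and HIPK2, -0.0119 for HIPK1 and HIPK3, and 0.178 for HIPK2 and HIPK3. These values describe libraries that fall into 4 groups and share library totals.

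At the level of single transcripts, HIPK1 had 11 entries in the table, HIPK2 3 and HIPK3 6. Of these, 4, 3 and 4 reached 1 TPM in at least 3 libraries. The remaining entries summed to at most 2.83 TPM for HIPK1 and 0.871 TPM for HIPK3 in any library. Isoforms share most of their sequence: 73.6% of the 31-base stretches of HIPK2-202 belong to it alone, but 0.554% of those of HIPK1-205 and none of those of HIPK1-204, HIPK3-202 and HIPK3-203. The split of HIPK1 and HIPK3 between isoforms is therefore uncertain. Transcripts were also grouped by whether their 3' UTR reached 3000 bases. The level of the short forms stays uncertain in that grouping too, since only 2.17% of the stretches of HIPK3-204 belong to it alone and none of those of HIPK1-204. For the short HIPK2 forms the figures are 11.1% for HIPK2-201 and 2.16% for HIPK2-203.

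HIPK1-205, the longest HIPK1 transcript at 8157 bases, had 26.2, 22.2 and 21.1 TPM with miR-126, 25.0, 21.0 and 7.62 TPM with miR-143, 21.5, 20.3 and 3.58 TPM with miR-150, and 5.50, 5.28 and 5.90 TPM with scrambled RNA. It was above the scrambled range in each mimic library but replicate 4 of miR-150. In both libraries that stood apart a larger share was given to HIPK1-202, a form of 5766 bases that ends in the same 3' UTR, at 40.4% of HIPK1 for miR-143 and 62.6% for miR-150. Elsewhere HIPK1-202 held at most 15.9%.

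All HIPK1 transcripts with the long 3' UTR together had 28.0, 25.3 and 26.2 TPM with miR-126, 27.3, 27.6 and 16.3 TPM with miR-143, 23.2, 25.5 and 11.6 TPM with miR-150, and 7.05, 8.35 and 7.72 TPM with scrambled RNA. By this sum every mimic library lay above every scrambled one. That includes replicate 4 of miR-150, where all of HIPK1 was assigned to these transcripts and where the whole gene fell within the scrambled range. The HIPK1 transcripts with a short 3' UTR or none, which hold neither the miR-143-3p match nor the 7-mer, had 7.40, 9.57 and 8.5 TPM with miR-126, 6.70, 0.493 and 0 TPM with miR-143, 8.93, 5.35 and 0 TPM with miR-150, and 0.452, 3.90 and 0.957 TPM with scrambled RNA. With miR-126 these short forms, too, were above the scrambled range in each library, while with miR-143 and miR-150 the ranges overlapped. In both libraries apart they were listed at 0. HIPK1 was chosen for its higher level in these libraries, and no share of transcripts with such patterns was computed. Nothing is therefore read from the separation of either group of forms.

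HIPK2-202 carries all 9 miR-143-3p matches of the gene. It had 16.6, 12.3 and 16.8 TPM with miR-126, 4.04, 3.61 and 2.11 TPM with miR-143, 20.3, 16.2 and 5.71 TPM with miR-150, and 14.6, 15.5 and 19.3 TPM with scrambled RNA. It was lowest in the 3 miR-143 libraries, at a mean of 3.26 ± 1.01 TPM against 16.4 ± 2.48 TPM with scrambled RNA (SD, n = 3 each). HIPK2-201 and HIPK2-203, whose 3' UTRs of 201 and 298 bases hold no match, summed to 3.59, 1.79 and 3.52 TPM with miR-126, 2.96, 0.845 and 0.841 TPM with miR-143, 3.51, 2.9 and 0.252 TPM with miR-150, and 0.826, 2.03 and 3.78 TPM with scrambled RNA. The miR-143 and scrambled ranges of these short forms overlapped. HIPK2-202 made up 57.7% to 81.1% of HIPK2 with miR-143, against 83.6% to 94.6% with scrambled RNA, and these ranges did not overlap. No share of transcripts with such a pattern was computed. HIPK2 was chosen for its lower level with miR-143, so the fall of its main transcript is not independent of that choice. The short forms lay at or under 3.78 TPM in every library. Whether the matches play a part was not tested.

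For HIPK3, the transcripts with the long 3' UTR had 26.2, 17.6 and 18.2 TPM with miR-126, 34.7, 25.4 and 18.5 TPM with miR-143, 25.6, 21.3 and 8.26 TPM with miR-150, and 28.5, 26.3 and 30.4 TPM with scrambled RNA. HIPK3-204, whose annotation has no 3' UTR, had 13.4, 14.1 and 14.5 TPM with miR-126, 15.2, 1.28 and 0 TPM with miR-143, 14.9, 7.0 and 0 TPM with miR-150, and 3.43, 8.01 and 10.5 TPM with scrambled RNA. The miR-126 libraries were all below the scrambled range for the long form, replicate 2 only just, and all above it for HIPK3-204. Over all tested genes, 23.1% lay wholly above and 11.1% wholly under scrambled RNA with miR-126. No such share was computed over transcripts, so nothing is read from either pattern. The long form made up 55.5% to 66.2% of HIPK3 with miR-126, against 74.2% to 87.1% with scrambled RNA. With miR-143 and miR-150 the share ran up to 100% in replicate 4 and overlapped the scrambled range.

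**Figure D5:**
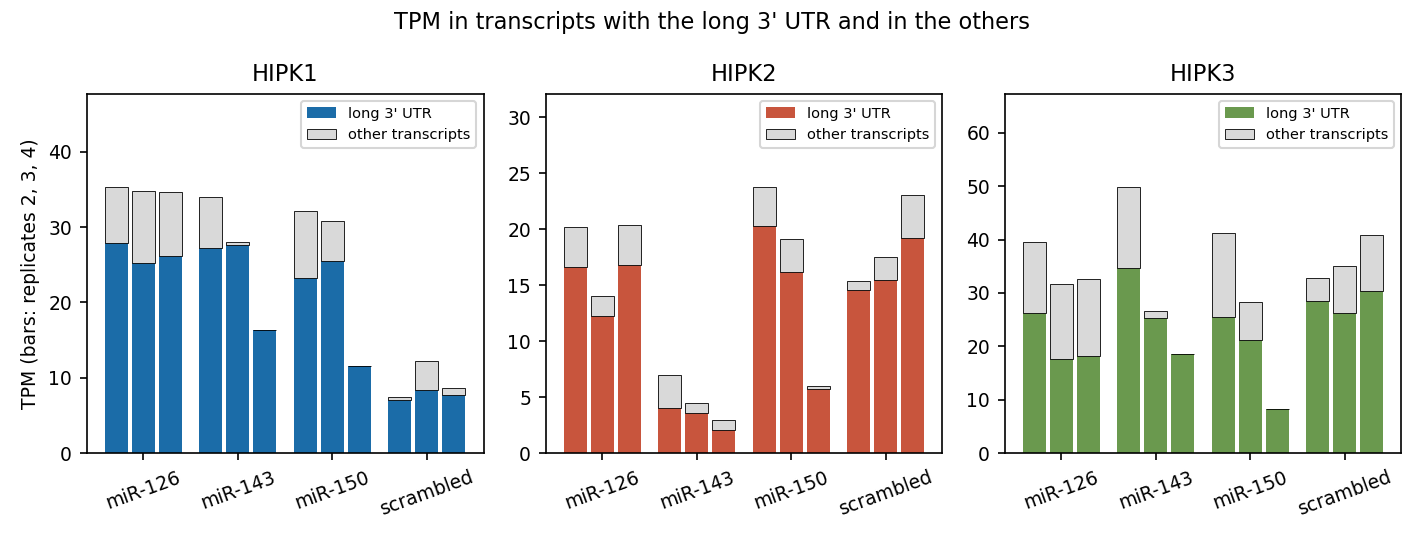
TPM of each library (bars: replicates 2, 3 and 4 of each group) split into transcripts with a 3' UTR of at least 3000 bases (coloured) and all other transcripts of the gene (grey, stacked on top). The HIPK2 loss with miR-143 lies mostly in the coloured part (2.11 to 4.04 TPM, against 14.6 to 19.3 TPM with scrambled RNA), the HIPK3 bars of miR-126 hold more grey than scrambled ones, and grey is at 0 for HIPK1 and HIPK3 in replicate 4 of miR-143 and of miR-150.

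The members' ranks stand against the following background. With miR-126, 3.37% of tested genes were called higher and 1.73% lower by limma at an adjusted p under 0.05. In 23.1% all 3 miR-126 libraries lay above all 3 scrambled ones, as for HIPK1, and in 11.1% all lay under them. With miR-143, 1.84% were called higher and 1.48% lower. All 3 libraries lay above the scrambled ones in 11.4% of genes, as for HIPK1, and under them in 13.9%, as for HIPK2. With miR-150, 1.08% were called higher and 2.23% lower, 6.87% of genes lay wholly above and 14.6% wholly under, and no HIPK gene did either. These contrasts chose the members, so nothing is read from the counts.

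The calls for all genes depended on the model. The same-numbered libraries of miR-126 and scrambled RNA deviated together. A block for the replicate number raised the calls to 2331, against 702 without it. Centring each library on its median turned the calls for miR-126 to 354 higher and 547 lower, against 464 and 238 without centring, and moved the median difference of all genes to -0.04, against 0.10. For miR-150 the calls became 245 higher and 337 lower, against 149 and 307, with a median of 0.02, against -0.11. HIPK1 stayed higher with the centring, at 1.67 for miR-126, 1.39 for miR-143 and 1.33 for miR-150, and HIPK2 stayed lower with miR-143, at -1.75.

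A fixed list of kinases related to the HIPKs, the DYRK, CLK, PRPF4B, SRPK and NLK genes with HIPK4, showed 1 call in the 3 comparisons. HIPK4, the remaining family member, stayed at or under 0.241 TPM in each library and was not tested, which left 13 of 14 kinases. With miR-126, limma called 0 higher and 0 lower (1 higher and 0 lower at an unadjusted p under 0.05). With miR-143 it called 0 higher and 1 lower (7.69%, against 1.48% of all tested genes), and with miR-150 0 and 0 (0 and 0 unadjusted). The median log2 differences were 0.08, -0.10 and -0.16 for miR-126, miR-143 and miR-150, beside 0.10, -0.04 and -0.11 over all tested genes.

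The gene called was DYRK1B, a dual-specificity kinase linked to cell quiescence. DYRK1B averaged 7.32 ± 1.08 TPM with miR-143 and 15.7 ± 1.77 TPM with scrambled RNA (SD, n = 3 each). The miR-143 libraries, at 6.18 to 8.32 TPM, all lay below the scrambled ones, at 13.9 to 17.4 TPM. Its log2 difference was -1.01 (SE 0.160, limma adjusted p = 0.00635), and it passed in each of 12 fits that left out 1 library.

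Of 45 genes whose products regulate HIPKs, bind them or are phosphorylated by them, 43 were tested (TP63 and MYB were not). Limma called 0 higher and 2 lower with miR-126 (4.65% lower, against 1.73% of all tested genes), 0 higher and 1 lower with miR-143 (2.33%, against 1.48%), and 0 higher and 2 lower with miR-150 (4.65%, against 2.23%). At an unadjusted p under 0.05, 1 was higher and 5 lower with miR-126 (11.6% lower), 0 and 6 with miR-143 (14.0%), and 0 and 11 with miR-150 (25.6%). Over all tested genes, that rule gave 13.7% higher and 5.7% lower with miR-126, 8.36% and 8.39% with miR-143, and 5.55% and 11.8% with miR-150. Nothing particular to the list is read from these shares. The list's median log2 differences were -0.04, -0.21 and -0.26 for miR-126, miR-143 and miR-150, beside the medians of all genes given above.

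With miR-126, both genes called encode partners in transcription. CBFB, the subunit that stabilises RUNX proteins on DNA, averaged 86.9 ± 2.05 TPM with miR-126 and 158 ± 16.4 TPM with scrambled RNA (SD, n = 3 each), a log2 difference of -0.85 (SE 0.185, limma adjusted p = 0.0240, with the replicate block 0.00695). CTNNB1, beta-catenin of the WNT pathway and of endothelial junctions, averaged 185 ± 23.3 TPM with miR-126 and 348 ± 69.4 TPM with scrambled RNA (SD, n = 3 each), a difference of -0.90 (SE 0.207, limma adjusted p = 0.0312, with the block 0.000265). Neither gene's ranges overlapped between the groups. Of the 12 fits with 1 library left out, both missed the threshold in 5, those without any of the miR-126 libraries or without scrambled replicate 2 or 4, with adjusted p up to 0.118 for CBFB and 0.147 for CTNNB1. With the replicate block, limma called 3 of the list higher (6.98%), namely MDM2, PML and SP100, and 5 lower (11.6%), namely AXIN1, CBFB, CTNNB1, HMGA1 and MAP3K7. Over all tested genes the block gave 11.8% higher and 5.11% lower.

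With miR-143, the partner called lower was HMGA1, an architectural chromatin protein that HIPK2 phosphorylates. HMGA1 averaged 286 ± 39.7 TPM with miR-143 and 526 ± 5.86 TPM with scrambled RNA (SD, n = 3 each), without overlap of the libraries. The log2 difference was -0.89 (SE 0.124, limma adjusted p = 0.00348), and it passed in each of 12 fits that left out 1 library. HMGA1 also lay below the scrambled range, 520 to 531 TPM, with miR-126 (378 to 437 TPM) and with miR-150 (337 to 440 TPM). It was called in neither (limma adjusted p = 0.0923 and 0.0867). The comparisons share the scrambled libraries, so a lower HMGA1 level is not particular to miR-143. HMGA1 has processed pseudogenes in the genome, with which reads can be split.

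With miR-150, SIAH2 and RANBP9 were called lower. SIAH2, a ubiquitin ligase that marks HIPK2 for degradation under low oxygen, averaged 12.8 ± 1.34 TPM with miR-150 and 22.3 ± 1.37 TPM with scrambled RNA (SD, n = 3 each), a log2 difference of -0.76 (SE 0.136, limma adjusted p = 0.0121). RANBP9, a scaffold protein that binds HIPK2, averaged 31 ± 5.88 TPM with miR-150 and 48.6 ± 0.901 TPM with scrambled RNA (SD, n = 3 each), a difference of -0.65 (SE 0.141, limma adjusted p = 0.0295). The ranges of the groups did not overlap for either gene. SIAH2 also lay below the scrambled range with miR-143 (16.4 to 19.0 TPM, against 20.7 to 23.3 TPM). RANBP9 did so with miR-126 (39.5 to 42.3 TPM, against 47.6 to 49.2 TPM). Neither was called there, and with the remaining mimic each gene's range overlapped the scrambled one. Without scrambled replicate 4 SIAH2 missed the threshold (adjusted p = 0.0737, the highest of 12 such fits). RANBP9 missed it in 5 of the 12, without any 1 of the 3 scrambled libraries and without replicate 2 or 4 of miR-126, with adjusted p up to 0.122.

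The genes most like each member were the 5 with the highest Pearson r over the 12 libraries, among 10567 genes with a mean of at least 5 TPM. For HIPK1 they were NCDN (r = 0.988), NUP62 (0.985), SFMBT1 (0.982), PPP6C (0.981) and ELF4 (0.980), and over the 10 libraries r lay between 0.981 and 0.993. NUP62, a nuclear pore protein, averaged 89.4 TPM with miR-126, 78.2 TPM with miR-143, 75.7 TPM with miR-150 and 52.3 TPM with scrambled RNA. The low scrambled means of such genes follow from how they were chosen, and GGTTGTG was singled out for low scrambled levels too, so nothing is read from the 4 of 5 that hold it (8.93% over all genes with a 3' UTR, not matched for length).

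For HIPK2 they were USP22 (r = 0.979), GXYLT1 (0.966), PHF6 (0.966), TEX261 (0.964) and FBXO21 (0.964), and over the 10 libraries r lay between 0.929 and 0.969. GXYLT1, a xylosyltransferase that modifies Notch receptors, averaged 41.6 TPM with miR-126, 8.29 TPM with miR-143, 32.2 TPM with miR-150 and 48.9 TPM with scrambled RNA, while USP22, a histone deubiquitinase, averaged 138 TPM with miR-126, 62.5 TPM with miR-143, 111 TPM with miR-150 and 133 TPM with scrambled RNA. The low miR-143 means of such genes follow from how they were chosen. A miR-143-3p seed match is in 4 of the 5 (13.3% over all genes with a 3' UTR, not matched for length), with 3 in GXYLT1, and nothing is read from that count.

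For HIPK3 they were ERBIN (r = 0.989), ARHGEF12 (0.988), AC068831.7 (0.986), SLF2 (0.983) and PPP4R3B (0.983). Over the 10 libraries without those that stood apart, r lay between 0.880 and 0.928 for these genes. Of the 4 with an annotated 3' UTR, none holds a miR-143-3p match. These correlations describe libraries that share their groups. Those over all libraries include the ones that stood apart, and the part of length in them was not tested.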

How the data were processed

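RNA of HMEC-1 cells was measured in 12 libraries, 4 groups of 3. The authors deposited TPM per transcript, made with kallisto, per the submitters' processing notes, which also name FastQC, sleuth and GRCh38 (hg38). For tool versions and the transcript annotation, the sources used here give nothing. TPM keep no read depth, so depth is unknown and precision rests on the spread between libraries. TPM carry any bias by transcript length and share 1 total per library.

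The members and gene lists were chosen with earlier results of these data known. TPM of transcripts were added up by symbol (171 transcripts had none). The 13750 genes that reached 1 TPM in 3 or more libraries entered limma 3.58.1 in R 4.3.3, a moderated two-sided test with mean-variance trend on log2(TPM + 1) over all libraries. Benjamini-Hochberg adjustment ran over all tested genes of a comparison (threshold 0.05). The fit was tested on simulated data with independent noise, without a replicate effect or a trend on length. That test therefore does not cover these features of the libraries. SEs are the moderated ones of that fit. Named were the members, their transcripts by the same minimum, called genes of the lists (up to 4 a direction), and the 5 genes most alike. Since separate cultures are not stated, p-values reflect library spread that may be technical. Alternatives were a pseudocount of 0.1, no filter, median centring, removal of the trend on length, protein-coding transcripts alone, 10 libraries, each library left out and the replicate number as a block.

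The labels do not say what the replicate numbers mark. Residuals of same-numbered libraries correlated with those of scrambled RNA by 0.289, 0.634 and 0.401 for miR-126 (numbers 2, 3 and 4), all above 0.1, so blocked values stand beside its results where they change them. GENCODE 29 held 90.6% of the transcripts by identifier and gave structures and 3' UTRs.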

Additional observations from a re-analysis of the deposited data

How the results depend on the processing

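HIPK differences were held to the SD of the 2 groups compared, pooled on the log2 scale, which for miR-150 was 0.72 for HIPK2 and 0.82 for HIPK3 with replicate 4 included. By that measure none moved by more than 1 SD, but with 10 libraries and the block HIPK2 with miR-150 was 0.32 and HIPK3 -0.05. The signs that changed were those of HIPK2 with miR-150 and HIPK3 with miR-143 without the libraries apart, and of HIPK2 and HIPK3 with miR-126, whose values lie near 0, as given with the results. The number of genes called was less stable. For all genes with miR-126 (702 called), the replicate block gave 2331, the 10 libraries 1835, removal of the length trend 1120 and the 10 libraries with the block, chosen after seeing the data, 4389. Leaving out 1 of the 12 libraries gave 214 to 1365, the highest without miR-150 replicate 4. For miR-143 (457) these were 1775, 707, 730 and 2299, with 139 to 974 on leaving out 1 library, the highest again without miR-150 replicate 4. For miR-150 (456), the block gave 1694, removal of the length trend 692 and the 10 libraries with the block 1759, with 125 to 553 on leaving out 1 library.

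Among HIPK partners, the calls with miR-126 (2) became 8 with the block, 6 with 10 libraries, 7 centred, 1 without the filter and 18 with 10 libraries and the block, and 0 to 4 on leaving out 1 library. With miR-143 (1) they became 7, 3 and 3 with the block, 10 libraries and centring, 9 with 10 libraries and the block, and 1 to 5 on leaving out 1 library. With miR-150 (2) they became 7 with the block, 4 centred and 10 with 10 libraries and the block, and 0 to 5 on leaving out 1 library. Among related kinases, miR-126 (0) gave 2 with 10 libraries, with or without the block, and 0 to 1 on leaving out 1 library (NLK, without miR-150 replicate 4), and miR-143 (1) gave 2 with 10 libraries and the block. The cause was not tested in any of these. Of the values recomputed, 283 stayed within their margin (1 SD, or 1.5 times for a count) and 59 did not.

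In replicate order, residuals of same-numbered libraries correlated with those of scrambled RNA by 0.0438, 0.650 and 0.174 for miR-143. For miR-150 the values were 0.0726, 0.604 and 0.0747. Replicate 3 of both mimics thus deviated together with replicate 3 of scrambled RNA. Neither mimic had every pair above 0.1, the rule that miR-126 met. Over all 12 libraries a block cannot change a difference of group means. Over 10 libraries it took HIPK2 with miR-150 to 0.32, against 0.20, and HIPK2 with miR-143 to -1.43, against -1.55. TPM keep no depth, so how far a low value such as the short HIPK forms is limited by reads is unknown. With 3 libraries a group, and 1 of the miR-143 and 1 of the miR-150 libraries low in long transcripts, HIPK levels with these mimics are the least precise.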
